A study of Mus musculus with 8 samples.

Results

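The 30 genes described here are markers of hepatic stellate cells and portal fibroblasts, the mesenchymal cells of the liver, followed in 8 bulk RNA libraries of mouse liver at week 7. They were chosen by gene symbol. All 30 were among the 27110 genes of the deposited table, and all 30 were among the 16420 genes with enough reads to test. The 4 LKO libraries (labelled 3, 4, 12 and 13, all female) came from livers with a liver-restricted deletion of Pkd1l1, a polycystin-family gene named in the study's title as a candidate gene of biliary atresia. The 4 Fl/Fl libraries are the controls with the floxed allele, labelled 5, 7 and 9 (female) and 10 (male). All 8 carry the treatment label NT. The sources used here name no Cre line, so whether mesenchymal cells carried the deletion is not known from them. The labels name hepatocytes and cholangiocytes as the cell types, but the source label is tissue, and each of the 30 mesenchymal markers was read in each library.

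Stellate cells sit in the space between hepatocytes and the sinusoidal endothelium. In the healthy liver they store vitamin A as retinyl esters and act as pericytes. Portal fibroblasts surround the bile ducts and vessels of the portal tract and deposit elastic fibres there. In cholestatic and other injury, both cell types can become contractile, matrix-producing myofibroblasts under transforming growth factor beta (TGF-beta) and platelet-derived growth factor (PDGF). The comparison of LKO with Fl/Fl shows how the RNA of these marker genes stood in bulk liver in a model of bile duct malformation.

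No member passed the test of LKO against female Fl/Fl livers. The members' median log2 fold change was -0.11, against -0.0032 over all tested genes. Gas6, a secreted ligand of the TAM receptor kinases, came closest at 1.42-fold higher (adjusted p = 0.062), followed by Lum, the collagen-binding proteoglycan lumican, at a log2 fold change of -0.40 (adjusted p = 0.110). What varied most among these genes were single libraries. Acta2 and Dpt were high in Fl/Fl 7, Lrat was low in LKO 3, and the male Fl/Fl library held the lowest value of 20 of the 30 members.

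Promoter sequences are shown for 3 members on which these results turn, as the 250 bases before the annotated start (RefSeq, GRCm38.p6, all on the minus strand, written 5′ to 3′ on the gene's strand). Acta2 and Lrat are shown because single libraries lay far from the rest in each, and Gas6 because it had the smallest p of the 30. Capitals mark, in Acta2, the CArG box, the binding motif of serum response factor (searched by name on both strands, with at most 1 G or C allowed in its middle). In Lrat and Gas6 they mark GGGCGG or its complement CCGCCC, the GC box (both strands searched).
Acta2, chr19:34255374-34255623: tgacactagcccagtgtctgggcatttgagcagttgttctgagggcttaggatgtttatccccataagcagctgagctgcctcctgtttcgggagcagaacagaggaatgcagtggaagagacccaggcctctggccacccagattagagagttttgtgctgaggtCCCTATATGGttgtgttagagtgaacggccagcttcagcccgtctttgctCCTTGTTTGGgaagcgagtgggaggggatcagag
Lrat, chr3:82903975-82904224: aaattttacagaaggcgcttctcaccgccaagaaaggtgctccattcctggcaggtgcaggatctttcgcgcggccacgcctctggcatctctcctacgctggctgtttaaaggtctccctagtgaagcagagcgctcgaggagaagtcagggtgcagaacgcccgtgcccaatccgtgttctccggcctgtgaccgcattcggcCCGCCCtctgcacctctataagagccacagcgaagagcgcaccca
Gas6, chr8:13494536-13494785: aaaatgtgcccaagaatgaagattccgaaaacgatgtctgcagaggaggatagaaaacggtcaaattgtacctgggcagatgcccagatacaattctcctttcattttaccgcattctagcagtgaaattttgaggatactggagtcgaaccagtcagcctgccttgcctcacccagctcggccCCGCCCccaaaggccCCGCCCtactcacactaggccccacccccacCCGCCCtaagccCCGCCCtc
The Acta2 window held 2 such boxes, beginning 84 and 34 bases before the start. Promoters were at hand for 22 of the 30 members and for 14719 genes of the table. With at most 1 G or C allowed, the CArG box was in 3 of the 22 (Lrat, Fbln2 and Acta2) and in 8.24% of all 14719 windows. Without that allowance it was in 0 of the 22 and in 1.17% of all windows. GGGCGG was in 12 of the 22 and in 50.2% of all windows. AGGTCA, a motif bound by retinoic acid receptors, was in 0 of the 22, Lrat included, and in 12% of all windows (both strands searched). TATAAA was in 3 of the 22 (Ecm1, Vim and Postn) and in 8.36% of all windows. These counts describe letters in the window and not binding.

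The libraries held 71491723 to 76622375 counted reads, so 3 reads in a library were worth 0.0385 to 0.0428 CPM (reads scaled to a common library size, with TMM library sizes). The contrast was taken within females by a sex term, since 1 Fl/Fl library is male. Means are given ± SD (n = 4 LKO libraries, n = 3 female Fl/Fl libraries). A log2 fold change sets LKO against female Fl/Fl and carries its standard error after the ±. The test was the quasi-likelihood F test of edgeR, and its p-values were adjusted over all tested genes by Benjamini-Hochberg, with a threshold of 0.05. Pkd1l1 itself had 2 reads over the LKO libraries, 2 over the 3 female controls and 0 in the male control, so it could not check the genotype labels. By the list of cell type markers used here, hepatocyte markers summed to 115682 to 130693 CPM in LKO, 120507 to 128039 CPM in female Fl/Fl and 77057 CPM in the male library. Most of that sum was albumin (Alb), at 55809 CPM in the male library, while Apoa1 and Hnf4a were highest there. None of the 7 hepatocyte genes passed, and the smallest p was that of Hnf4a, a transcription factor of hepatocytes (log2 fold change 0.47, adjusted p = 0.0646). Cholangiocyte markers summed to 54.9 to 65.8 CPM in LKO, 65.7 to 79.9 CPM in female Fl/Fl and 57.2 CPM in the male library, with none of 8 passing the gene test. Mesothelial markers summed to 6.91 to 9.61 CPM in LKO, 6.54 to 10.6 CPM in female Fl/Fl and 4.62 CPM in the male library, with none of 7 tested genes passing. In bulk tissue, fewer cells of a type and less of an RNA per cell cannot be told apart.

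Levels of different members were compared on the authors' FPKM, which are scaled by gene length. Mean FPKM over the 8 libraries was at least 10 for 5 members, from 1 to 10 for 14 and under 1 for 11. Ecm1, a secreted protein that restrains activation of latent TGF-beta, was highest at a mean of 60.03 FPKM. Dcn, the small proteoglycan decorin, had 28.2 FPKM, Gas6 23.7, Sparc, a collagen-binding matricellular protein, 22.3, and Colec11, a secreted collectin, 19.5. The ranges over libraries of neighbours in this order, from Dcn to Colec11, overlapped. Rgs5, a pericyte regulator of G-protein signalling, followed at 9.74 FPKM, and the intermediate filament vimentin (Vim) at 4.71. Lum had 4.38 FPKM. Lrat, the enzyme that esterifies vitamin A for storage, had 3.24, and Reln, the secreted glycoprotein reelin, 3.23. Cygb, the stellate cell globin cytoglobin, had 3.14. At the low end stood the portal fibroblast markers Thy1, a surface glycoprotein also on T cells, at 0.425 FPKM, and Cd34, a surface sialomucin also on endothelium, at 0.24. Tagln, the actin-binding smooth muscle protein transgelin, was lowest at 0.145 FPKM and rested on 13 to 30 reads a library.

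**Figure D1:**
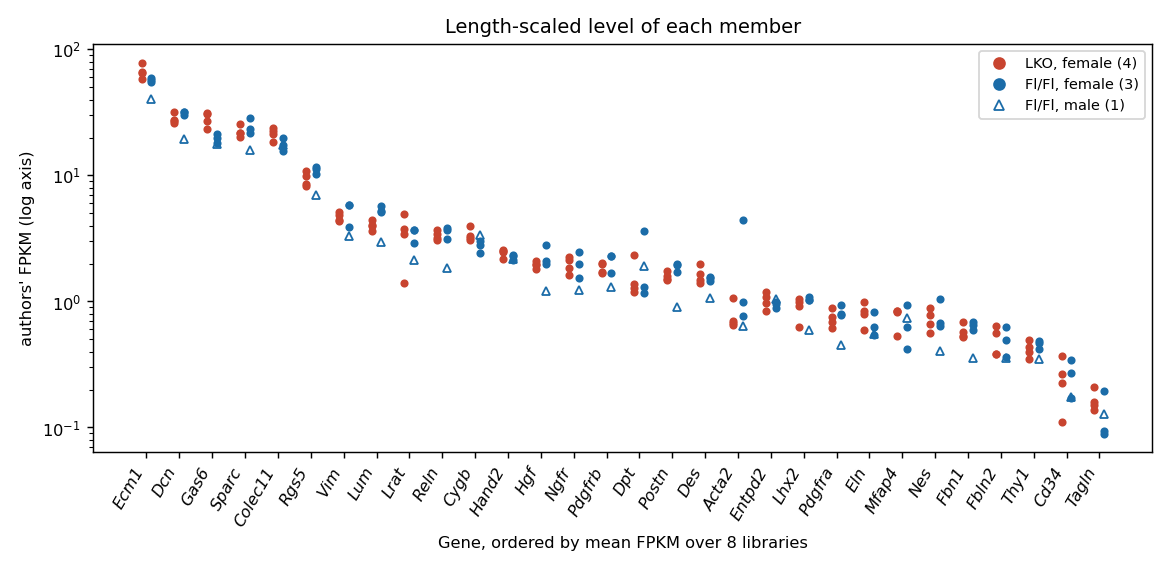
Authors' FPKM (log axis) of each of the 30 members in each library, ordered by mean FPKM from Ecm1 (60.03) to Tagln (0.145). Red points are the 4 LKO libraries, blue points the 3 female Fl/Fl libraries and open triangles the male Fl/Fl library. The triangle lies at or near the bottom of most columns, and Acta2 and Dpt have 1 female Fl/Fl point above all others.

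Of the 30 members, 0 passed an adjusted p of 0.05, where 1.41% of all tested genes did (232 of 16420; 1.02% higher and 0.396% in the lower direction). At an unadjusted p under 0.05 there were 5, which were Gas6, Colec11 and Ecm1 on the higher side and Lum and Postn on the lower. That compares with 16.1% of all tested genes (9.22% higher and 6.86% lower), so the members' share was close to the background. Every LKO library lay above every female Fl/Fl library for Gas6 and Cygb, and below for Lum. These 3 members stand beside 15.1% of all tested genes whose female groups did not overlap (8.85% with LKO above and 6.22% with LKO below), so their share was not above the background. The fold change was negative for 20 members, against 50.5% of all tested genes. DESeq2 with the same terms called 2 members, Gas6 (adjusted p = 0.00893) and Lum (adjusted p = 0.0395), where it called 4.59% of the 16587 genes to which it gave an adjusted p. Limma voom and limma on log2(FPKM + 1) called 0 members. In the authors' deposited table, Gas6 was the 1 member with an adjusted p under 0.05 (log2 fold change 0.54, adjusted p = 0.0184), against 0.409% of the genes listed there. The authors' log2 fold changes lay near those of a fit with no sex term, which pools the male control with the female ones. They were 0.13 against 0.14 for Lrat and 0.09 against 0.10 for Reln, so that contrast may not be within females.

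The intervals show which sizes of change these libraries leave. For 27 of the 30 members the 95% confidence interval lay within 2-fold either way, and for 17 within 1.5-fold. The 3 exceptions were Acta2 (0.139-fold to 1.01-fold), Tagln (0.665-fold to 2.56-fold) and Dpt (0.383-fold to 1.52-fold). When the sex term was dropped and all 4 controls were pooled, the members' median turned to 0.04 and 0 members passed, where 0.00609% of all tested genes did.

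**Figure D2:**
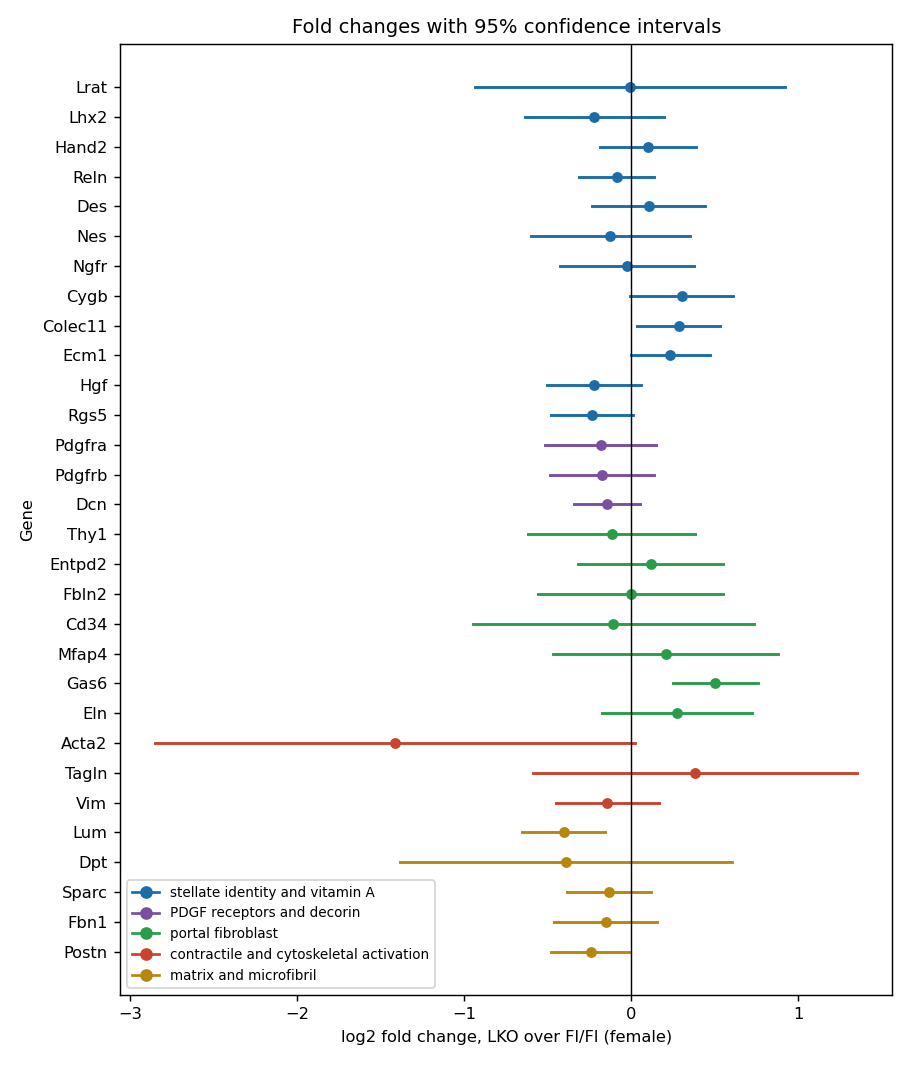
Log2 fold change of LKO over female Fl/Fl (points) with 95% confidence intervals (lines) for the 30 members, coloured by role. Most intervals cross 0 and lie within 1 log2 unit of it. Gas6 and Lum lie clear of 0 on opposite sides, and Acta2, Tagln and Dpt have the widest intervals.

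No stellate identity gene passed the test. In this group of 12, 5 fold changes were positive and 7 negative, with a median of -0.02. Colec11 had 33.1, 37.0, 35.5 and 28.6 CPM in LKO 3, 4, 12 and 13, against 27.1, 24.7 and 30.9 CPM in Fl/Fl 5, 7 and 9 and 27.0 CPM in the male library. LKO 13 overlapped with Fl/Fl 9, and the log2 fold change was 0.28 ± 0.11 (adjusted p = 0.255). Ecm1 had 162, 191, 160 and 140 CPM in LKO 3, 4, 12 and 13, against 143, 135 and 138 CPM in Fl/Fl 5, 7 and 9 and 97.9 CPM in the male library. Again LKO 13 lay inside the female Fl/Fl range (log2 fold change 0.24 ± 0.11, adjusted p = 0.310). Cygb had 7.48, 8.88, 6.89 and 7.11 CPM in LKO 3, 4, 12 and 13, against 6.27, 5.46 and 6.75 CPM in Fl/Fl 5, 7 and 9. The female groups did not overlap, but the male Fl/Fl library, at 7.49 CPM, lay inside the LKO range (log2 fold change 0.30 ± 0.14, adjusted p = 0.323).

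Rgs5 averaged 41.2 ± 5.52 CPM in LKO and 48.5 ± 2.83 CPM in female Fl/Fl (log2 fold change -0.24 ± 0.11, adjusted p = 0.327). Hgf, the hepatocyte growth factor that stellate cells supply to hepatocytes, averaged 13.6 ± 0.771 CPM in LKO and 15.8 ± 2.96 CPM in female Fl/Fl (adjusted p = 0.424). Reln averaged 76.4 ± 6.60 CPM in LKO and 81.1 ± 8.44 CPM in female Fl/Fl (adjusted p = 0.736). The transcription factors that set stellate cell identity, Lhx2 and Hand2, gave -0.22 ± 0.19 (adjusted p = 0.614) and 0.10 ± 0.13 (adjusted p = 0.763) on the log2 scale. Hand2 was the steadiest of the 30 over the 7 female libraries, with its highest value 1.181-fold its lowest. It overlaps the opposite-strand transcript AV026068, and because no strand setting is stated their reads cannot be told apart. The intermediate filament genes Des and Nes and the neurotrophin receptor Ngfr had adjusted p-values of 0.798, 0.828 and 0.965, and their groups overlapped.

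Lrat varied between LKO livers more than between genotypes. It had 7.27, 25.5, 19.5 and 17.7 CPM in LKO 3, 4, 12 and 13, against 18.9, 15.01 and 18.9 CPM in Fl/Fl 5, 7 and 9 and 10.9 CPM in the male library. LKO 3 was the lowest of the 8 and LKO 4 the highest, 3.51-fold apart, so the LKO range enclosed the Fl/Fl libraries. The log2 fold change was -0.0086 ± 0.39 (adjusted p = 0.994), and 0.24 without LKO 3 (adjusted p = 0.492).

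Genes known to be induced by retinoic acid, the active form of vitamin A, were then set beside Lrat; these 3 were picked from the retinoid list after their values were seen. Cyp26b1, a retinoic acid-degrading enzyme found in stellate cells, had 0.356, 46.0, 10.7 and 5.996 CPM in LKO 3, 4, 12 and 13, against 12.1, 2.53 and 4.4 CPM in Fl/Fl 5, 7 and 9 and 1.81 CPM in the male library. Its lowest and highest libraries were LKO 3 and LKO 4, as for Lrat, and 27 and 3329 reads lay behind them. Cyp26a1, the hepatocyte enzyme of the same step, had 13.9, 76.9, 19.6 and 24.7 CPM in LKO 3, 4, 12 and 13, against 21.5, 30.03 and 14.4 CPM in Fl/Fl 5, 7 and 9 and 26.4 CPM in the male library. Rarb, a retinoic acid receptor, had 1.5, 3.49, 3.39 and 2.59 CPM in LKO 3, 4, 12 and 13, against 2.002, 2.45 and 2.54 CPM in Fl/Fl 5, 7 and 9 and 1.37 CPM in the male library. In each of the 4 genes LKO 4 was the highest library, and LKO 3 was the lowest except for Rarb, where the male library was lower. Of the 16 tested genes of retinoid handling, 0 passed the test. The smallest p in that list was that of Lpl, lipoprotein lipase, at 26.2 ± 3.03 CPM in LKO and 36.3 ± 9.46 CPM in female Fl/Fl (adjusted p = 0.207).

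**Figure D3:**
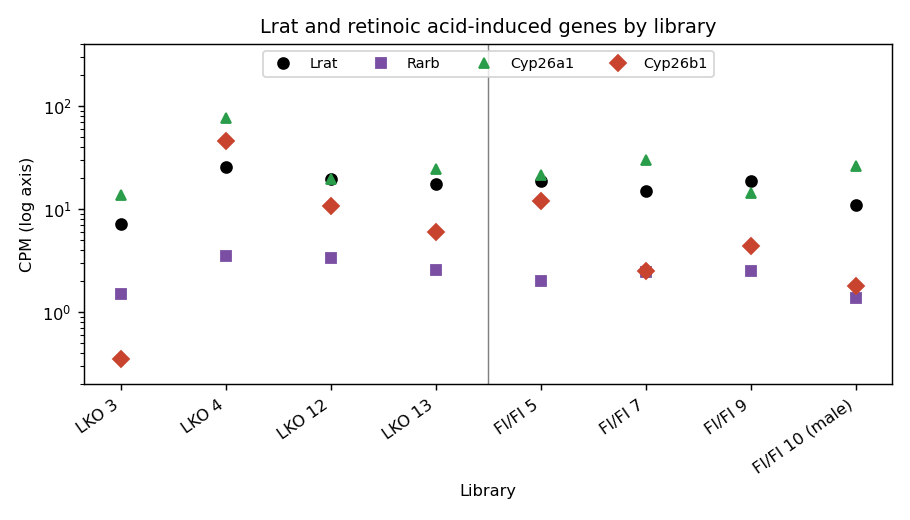
CPM (log axis) of Lrat, Rarb, Cyp26a1 and Cyp26b1 in each library, LKO left of the line and Fl/Fl right of it. LKO 4 is highest for each of the 4 genes, and Cyp26b1 ranges from 0.356 CPM in LKO 3 to 46.0 CPM in LKO 4.

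The PDGF receptors and decorin had 3 negative fold changes of 3, none past the test. Dcn had 156, 178, 147 and 153 CPM in LKO 3, 4, 12 and 13, against 179, 179 and 167 CPM in Fl/Fl 5, 7 and 9 and 109 CPM in the male library. LKO 4 lay inside the female Fl/Fl range (log2 fold change -0.14 ± 0.09, adjusted p = 0.474). Pdgfrb, the receptor that drives stellate cell proliferation, had 10.7, 9.005, 8.94 and 10.5 CPM in LKO 3, 4, 12 and 13, against 12.1, 8.94 and 12.1 CPM in Fl/Fl 5, 7 and 9 and 6.82 CPM in the male library. Among female libraries Fl/Fl 7 and LKO 12 were lowest and nearly equal (log2 fold change -0.17 ± 0.14, adjusted p = 0.592). Pdgfra, the related alpha receptor, had 6.68, 8.59, 5.95 and 7.21 CPM in LKO 3, 4, 12 and 13, against 9.04, 7.67 and 7.49 CPM in Fl/Fl 5, 7 and 9 and 4.31 CPM in the male library. LKO 4 lay inside the female Fl/Fl range (log2 fold change -0.18 ± 0.15, adjusted p = 0.603). The 4 PDGF ligand genes held 0 calls, and the one with the smallest p was Pdgfa (log2 fold change -0.19, adjusted p = 0.597).

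Among the 7 portal fibroblast genes, 4 fold changes were positive and 3 negative, and Gas6 was the member of all 30 with the smallest p. Gas6 (chromosome 8, 13465374 to 13494490, mm10) had 75.1, 76.6, 66.5 and 57.0 CPM in LKO 3, 4, 12 and 13, against 44.8, 52.6 and 48.2 CPM in Fl/Fl 5, 7 and 9 and 43.8 CPM in the male library. All 4 LKO libraries lay above all 4 Fl/Fl libraries. The log2 fold change was 0.50 ± 0.12, with a 95% interval of 1.19-fold to 1.69-fold. It stood at rank 309 of 16420 by p (adjusted p = 0.062). Gas6 is also made by endothelial cells and macrophages. Summed sinusoidal endothelial markers were 523 to 608 CPM in LKO, 504 to 624 CPM in female Fl/Fl and 393 CPM in the male library, and Kupffer cell and macrophage markers were 345 to 428 CPM in LKO, 309 to 459 CPM in female Fl/Fl and 308 CPM in the male library. For both lists the LKO range lay within the female Fl/Fl range, and 0 of 11 and 0 of 8 genes passed the test. The part of these cell types in the Gas6 values was not tested.

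Eln, the elastin of portal elastic fibres, had 6.22, 6.53, 7.75 and 4.59 CPM in LKO 3, 4, 12 and 13, against 4.2, 6.46 and 4.91 CPM in Fl/Fl 5, 7 and 9 and 4.31 CPM in the male library. LKO 13 lay among the low Fl/Fl values and Fl/Fl 7 among the LKO values (log2 fold change 0.27 ± 0.20, adjusted p = 0.560). Entpd2, the ATP-hydrolysing enzyme of portal fibroblasts, averaged 2.10 ± 0.31 CPM in LKO and 1.93 ± 0.103 CPM in female Fl/Fl (adjusted p = 0.827). It overlaps Npdc1 on the same strand, so some reads may belong to that gene. Thy1 averaged 1.21 ± 0.172 CPM in LKO and 1.32 ± 0.097 CPM in female Fl/Fl (adjusted p = 0.854), and the matrix protein fibulin-2 (Fbln2) 3.02 ± 0.81 CPM in LKO and 3.03 ± 0.80 CPM in female Fl/Fl (adjusted p = 0.995). Cd34 had 1.57, 1.85, 2.61 and 0.776 CPM in LKO 3, 4, 12 and 13, against 1.2, 2.41 and 1.88 CPM in Fl/Fl 5, 7 and 9 and 1.21 CPM in the male library. LKO 12 was its highest library and LKO 13 its lowest, so LKO enclosed the other libraries (adjusted p = 0.925). The microfibril protein Mfap4 had 1.54, 1.56, 1.54 and 0.986 CPM in LKO 3, 4, 12 and 13, against 0.774, 1.73 and 1.15 CPM in Fl/Fl 5, 7 and 9 and 1.37 CPM in the male library (adjusted p = 0.801). LKO 13 was low beside 3 nearly equal LKO values, and Fl/Fl libraries lay on both sides of them. Mfap4 overlaps Mapk7 on the opposite strand, which had more reads.

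**Figure D4:**
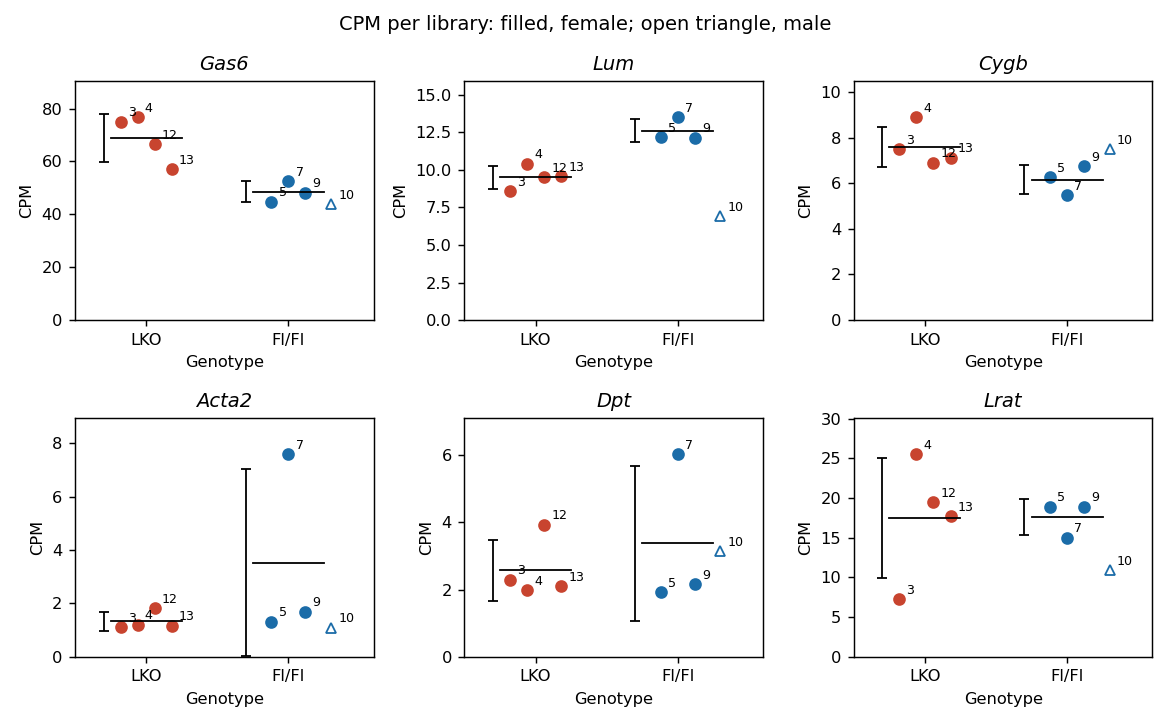
CPM of 6 members in each library, with library numbers beside the points. Lines are means and bars ± SD of the 4 LKO and 3 female Fl/Fl libraries; the open triangle is the male Fl/Fl library. Gas6, Cygb and Lum separate the female genotypes, while Acta2 and Dpt are set by Fl/Fl 7 and Lrat by LKO 3 and LKO 4. The male point lies inside the LKO range for Cygb and below each LKO point for Lum.

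None of the 3 contractile genes passed the test, and the fold change of Acta2 rested on 1 library. Acta2, the smooth muscle actin that marks myofibroblasts, had 1.11, 1.2, 1.83 and 1.16 CPM in LKO 3, 4, 12 and 13, against 1.31, 7.59 and 1.70 CPM in Fl/Fl 5, 7 and 9 and 1.08 CPM in the male library. Fl/Fl 7 was 4.48-fold above the next Fl/Fl library, and the other 7 libraries overlapped. The log2 fold change was -1.42 ± 0.61 with all libraries (adjusted p = 0.316) and -0.19 without Fl/Fl 7 (adjusted p = 0.857). Acta2 is one of several near-identical actins, so the split of reads among them is uncertain. Tagln had 0.290, 0.304, 0.401 and 0.263 CPM in LKO 3, 4, 12 and 13, against 0.374, 0.18 and 0.17 CPM in Fl/Fl 5, 7 and 9 and 0.242 CPM in the male library. Fl/Fl 7, on 14 reads, was not high for Tagln, and the groups overlapped (adjusted p = 0.728). The gene overlaps Pcsk7 and Gm48529 on the opposite strand, both with more reads, so its own level is uncertain. Vim had 22.0, 20.01, 23.7 and 20.1 CPM in LKO 3, 4, 12 and 13, against 17.9, 26.5 and 26.7 CPM in Fl/Fl 5, 7 and 9 and 15.1 CPM in the male library. The LKO values lay between those of Fl/Fl 5 and the other 2 female Fl/Fl libraries (log2 fold change -0.14 ± 0.14, adjusted p = 0.672).

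Most markers on the lists of vessel smooth muscle and of fat were also highest in Fl/Fl 7. The 5 smooth muscle markers summed to 2.41, 2.57, 5.05 and 3.02 CPM in LKO 3, 4, 12 and 13, against 1.90, 7.03 and 3.27 CPM in Fl/Fl 5, 7 and 9 and 2.84 CPM in the male library. Fl/Fl 7 was highest for 4 of the 5, where it was highest for 12.4% of all tested genes. The smooth muscle myosin Myh11 had 3.91 CPM in LKO 12 and 4.18 CPM in Fl/Fl 7. The 4 adipocyte markers summed to 0 to 0.0552 CPM in LKO, and to 0.0534, 1.10 and 0.0261 CPM in Fl/Fl 5, 7 and 9 and 0.0285 CPM in the male library. For Adipoq, the fat hormone adiponectin, LKO libraries held 0 to 4 reads, Fl/Fl 7 held 34 and the other Fl/Fl libraries 0. The part of these cell types in the Acta2 and Dpt values was not tested. The wider list of serum response factor and smooth muscle contraction genes went the other way in its sum, which was 539 to 563 CPM in LKO, 561, 493 and 566 CPM in Fl/Fl 5, 7 and 9 and 502 CPM in the male library. Fl/Fl 7 was the lowest of the 8 libraries in that sum, and for Mylk, the myosin light chain kinase (91.4 CPM), and Smtn, the contractile protein smoothelin (4.6 CPM). Most of the sum came from Cald1 (294 CPM in Fl/Fl 7) and Mylk. By gene, Fl/Fl 7 was the highest library for 6 of the 15 listed genes. Among them were Myl9 and the smooth muscle markers Myh11, Cnn1, Actg2 and Synpo2, which are on both lists, so the counts of the lists are not separate. Of 13 tested genes of that list, 0 passed, and the one with the smallest p was Synpo2 (log2 fold change -1.20 ± 0.36, adjusted p = 0.140).

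All 5 matrix and microfibril members had negative fold changes, with a median of -0.24, and none passed the test. Lum (chromosome 10, 97565128 to 97572703, mm10) had 8.56, 10.4, 9.49 and 9.57 CPM in LKO 3, 4, 12 and 13, against 12.1, 13.5 and 12.1 CPM in Fl/Fl 5, 7 and 9. The female groups did not overlap, but the male Fl/Fl library, at 6.90 CPM, lay below each LKO library. The log2 fold change was -0.40 ± 0.11 within females (adjusted p = 0.110) and -0.23 with no sex term (adjusted p = 0.783). Postn, the matricellular protein periostin of fibrotic tissue, had 12.7, 13.3, 14.8 and 12.4 CPM in LKO 3, 4, 12 and 13, against 14.3, 16.7 and 16.2 CPM in Fl/Fl 5, 7 and 9 and 7.51 CPM in the male library. LKO 12 lay above Fl/Fl 5, so the groups overlapped (log2 fold change -0.24 ± 0.11, adjusted p = 0.301).

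Sparc had 78.5, 79.7, 94.1 and 73.6 CPM in LKO 3, 4, 12 and 13, against 79.99, 84.9 and 103 CPM in Fl/Fl 5, 7 and 9 and 57.6 CPM in the male library. LKO 12 lay above 2 of the 3 female Fl/Fl libraries (log2 fold change -0.13 ± 0.11, adjusted p = 0.622). Fbn1, the fibrillin of elastic microfibrils, averaged 6.76 ± 0.902 CPM in LKO and 7.52 ± 0.571 CPM in female Fl/Fl (adjusted p = 0.643). With no sex term the fold changes of both turned to just above 0. Dpt, the collagen-binding protein dermatopontin, had 2.29, 1.98, 3.93 and 2.10 CPM in LKO 3, 4, 12 and 13, against 1.92, 6.03 and 2.17 CPM in Fl/Fl 5, 7 and 9 and 3.14 CPM in the male library. Fl/Fl 7 and LKO 12 were its highest libraries, as for Acta2. Its log2 fold change was -0.39 ± 0.43 (adjusted p = 0.721), and 0.33 without Fl/Fl 7 (adjusted p = 0.717). Of 8 fibril-forming and microfibrillar collagens, 0 passed, and 4 fold changes were negative. Col6a1 had the smallest p there (log2 fold change 0.19, adjusted p = 0.477).

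Of 27 tested genes of the TGF-beta pathway, 0 passed and 19 fold changes were negative, with a median of -0.11 against -0.0032 over all tested genes. At an unadjusted p under 0.05, 6 of the 27 were lower and 0 higher, beside 6.86% lower and 9.22% higher over all tested genes. These were Tgfbr3, Smad3, Smad4, Ctgf, Ski and Smurf2. Ctgf was highest in Fl/Fl 7, as Acta2 was, at 7.82, 19.8 and 5.87 CPM in Fl/Fl 5, 7 and 9. In LKO 3, 4, 12 and 13 it had 4.35, 5.08, 5.46 and 5.12 CPM. The list includes genes that act against the pathway, so its signs are not a measure of pathway activity. Smurf2, an enzyme that marks TGF-beta receptors and SMADs for degradation, averaged 46.7 ± 3.21 CPM in LKO and 59.4 ± 2.69 CPM in female Fl/Fl (log2 fold change -0.35 ± 0.09, adjusted p = 0.0834). Smad3 averaged 13.3 ± 2.64 CPM in LKO and 20.1 ± 1.07 CPM in female Fl/Fl (log2 fold change -0.59 ± 0.15, adjusted p = 0.088). Of 17 other stellate cell and pericyte genes, 1 passed and 16 did not, with 8 negative fold changes and a median of 0.02. Adamtsl2, a secreted microfibril-associated glycoprotein, had 11.96, 15.04, 8.78 and 13.3 CPM in LKO 3, 4, 12 and 13, against 6.5, 6.86 and 7.38 CPM in Fl/Fl 5, 7 and 9. It rose by 0.83 ± 0.17 on the log2 scale (adjusted p = 0.0455), while the male Fl/Fl library, at 12.2 CPM, lay within the LKO range. The call was lost in 9 of 18 alternatives, among them the fit with no sex term (adjusted p = 0.589). It was also lost without Fl/Fl 5 (adjusted p = 0.217), Fl/Fl 7 (0.148), LKO 3 (0.0743), LKO 4 (0.141) or LKO 13 (0.113).

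The male Fl/Fl library stood below the others for most members. It held the lowest of the 8 values for 20 of the 30 members, where it was lowest for 20.3% of all tested genes. It lay below every female Fl/Fl library for 21 members, against 32.8% of all tested genes. The median ratio of male to female Fl/Fl CPM was 0.641 over the members and 0.980 over all tested genes. By member, this ratio was 0.621 for Dcn, 0.519 for Reln, 0.477 for Postn and 0.645 for Sparc, but 0.979 for Colec11, 0.957 for Hand2 and 1.22 for Cygb. Of the 17 other stellate cell and pericyte genes the male library was lowest in 12, of the 8 collagens in 6 and of the 11 sinusoidal endothelial markers in 8. With 1 male library, sex and that library cannot be told apart, and no test of this difference is given.

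Relative to the mean of the 7 female libraries, the members' median log2 deviation was -0.56 in the male library, 0.10 in LKO 4, 0.07 in LKO 12, -0.00067 in LKO 3 and -0.15 in LKO 13. It was -0.05, -0.0090 and 0.06 in Fl/Fl 5, 7 and 9. For all tested genes this median stayed between 0.0026 and 0.011 in each library. LKO 13 was below the female mean for 24 of the 30 members, against 47.8% of all tested genes. Among the 7 female libraries the role medians of portal fibroblast genes spread most, at 0.28 in LKO 12, -0.31 in LKO 13 and -0.41 in Fl/Fl 5. Over the 7 female libraries the members' median SD on the log2 scale was 0.21, against 0.25 over all tested genes. Acta2 (0.97), Dpt (0.62), Cd34 (0.59) and Lrat (0.57) had the largest SDs among the 30, and Hand2 (0.09), Dcn (0.12) and Reln (0.13) the smallest. The sums of immediate early genes did not overlap between the female groups: the 8 on the list summed to 385 to 751 CPM in LKO, 1179 to 2783 CPM in female Fl/Fl and 309 CPM in the male library, with Jun and Junb past the test (adjusted p = 0.0369 and 0.00127). Junb kept its call in 17 of 18 alternatives and lost it with no sex term (adjusted p = 0.451). Jun kept its call in 9 of 18 and lost it with no sex term (adjusted p = 0.601) and without Fl/Fl 5 (0.13), Fl/Fl 7 (0.13), LKO 3 (0.064), LKO 4 (0.133), LKO 12 (0.0777) or LKO 13 (0.068). Their part in the member values was not tested.

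**Figure D5:**
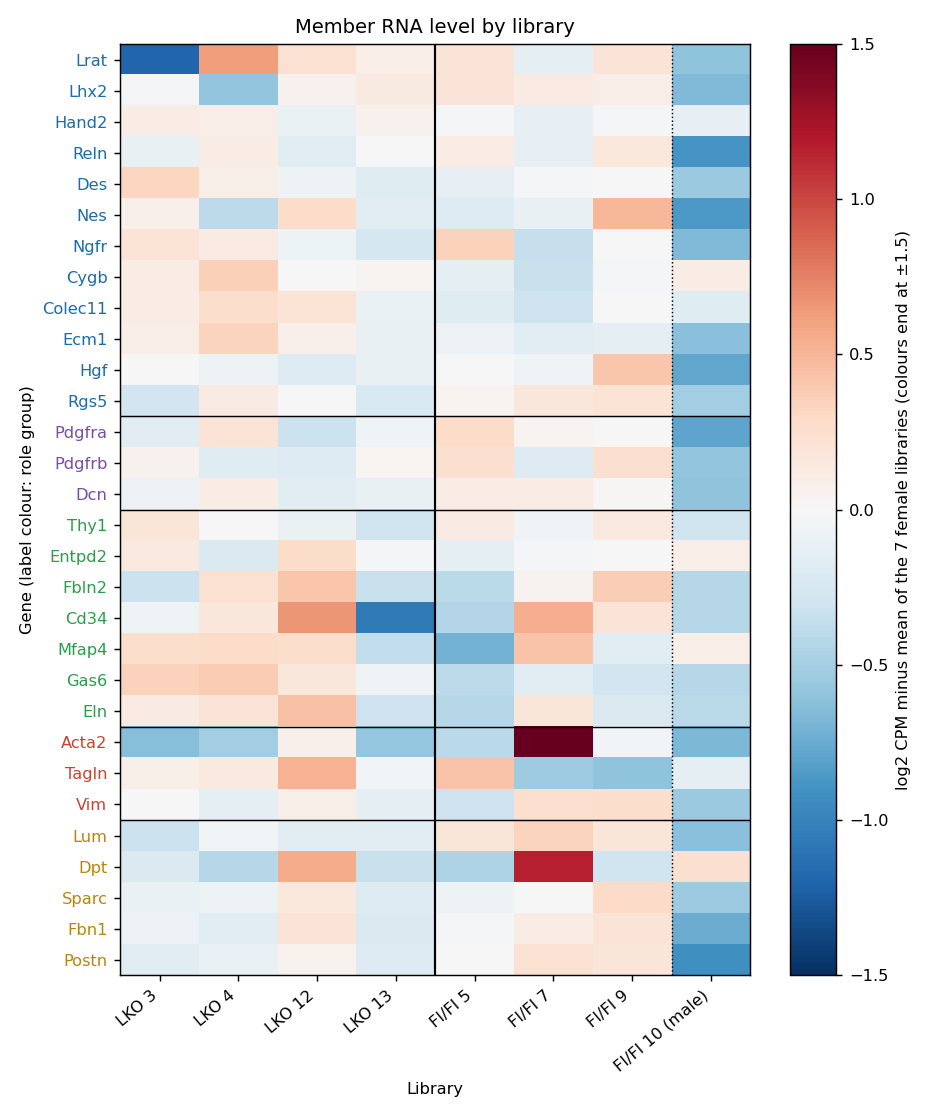
Log2 CPM of each member in each library minus its mean over the 7 female libraries (red above, blue below, colours ending at ±1.5). Columns run from LKO 3 to Fl/Fl 10, with the male library last; rows are grouped by role. The male column is blue for most rows, and among the darkest cells are Acta2 and Dpt in Fl/Fl 7, Lrat in LKO 3 and Cd34 in LKO 13.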

How the data were processed

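Total RNA of mouse liver was sequenced in 8 libraries after an NEBNext Ultra library preparation, per the labels' protocols. The submitters' processing notes name STAR, HTSeq, featureCounts, fastp, edgeR, DESeq and DESeq2 and the build mm10, with no roles, versions or strand setting. The table that the authors deposited has columns of read counts per gene, a signal column of counts divided by a size factor per library (not used here), FPKM, and their own log2 fold changes with p-values.

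Counts were tested in R 4.3.3 with edgeR 4.0.16 (filterByExpr, TMM, robust quasi-likelihood F test, two-sided) on the 8 libraries, modelling genotype and sex. The common biological coefficient of variation was 20.4%. Alternatives used DESeq2 1.42.0, limma 3.58.1, other scalings and filters, and each library left out. The labels do not tie libraries to separate animals, so p-values rest on the spread between libraries as labelled. Within a genotype that spread was above counting noise in each pair (chi-square per degree of freedom of 31.9 or more). Counting floors cover counting error only. The procedure was tested on simulated data.

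The members and lists were chosen with earlier results of these data known. All 30 members are named; library values are given for the 3 members of each role with the smallest p, the member with the highest FPKM, and those whose groups did not overlap. Of other lists, genes past the threshold or the one with the smallest p are named. The TGF-beta genes lower at an unadjusted p under 0.05 are named as well, and the values of Smad3 and Ctgf were added after they were seen. The library values of Lrat, Cd34 and Dpt, the retinoic acid-induced genes and the marker genes of Fl/Fl 7 were chosen after their values were seen.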

Additional observations from a re-analysis of the deposited data

Results flagged for a closer look

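In 7 of 60 combinations of a member and a genotype, 1 of the 4 libraries stood apart from the other 3 by Dixon's test at 95%; chance alone gives about 3 of 60. The value is the gap to the nearest library over the whole range. Acta2 in Fl/Fl gave 0.906 because of the 7.59 CPM in Fl/Fl 7, and Acta2 in LKO gave 0.868 because of the 1.83 CPM in LKO 12. Dpt in LKO gave 0.838, also for LKO 12 (3.93 CPM). Mfap4 in LKO gave 0.958 because LKO 13 was low at 0.986 CPM. The male library was the one apart in Fl/Fl for Lhx2 (0.862, at 2.52 CPM), Dcn (0.837, at 109 CPM) and Ecm1 (0.830, at 97.9 CPM).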

How the results depend on the processing

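The count of genes past the threshold over the whole table (232) depended on the fit: 1 with no sex term, 462 with no filter beyond 1 read, 762 with DESeq2, 140 with limma on log2(FPKM + 1), 531 at an adjusted p of 0.1 and 105 with Fl/Fl 7 and LKO 3 both left out, an alternative added after seeing the data. Leaving out single libraries gave 4 (without Fl/Fl 5) to 727 (without Fl/Fl 9), with 37 without Fl/Fl 7, 47 without LKO 4, 58 without LKO 13 and 141 without LKO 12. Of the 30 members (0 called), 1 was called with no filter (Gas6), 2 with DESeq2 (Gas6 and Lum) and 1 at an adjusted p of 0.1 (Gas6), and 0 in each other alternative. Over all genes given an adjusted p, the shares called were 1.7% with no filter, 4.59% with DESeq2 and 3.23% at an adjusted p of 0.1. Of 540 member values over 18 alternatives, 510 kept their direction and side of the threshold, 27 changed sign and 3 newly passed; 19 of the 30 members never changed sign. With no sex term the members' median was 0.0401, and log2 fold changes turned to 0.14 for Lrat, 0.10 for Reln, 0.0609 for Nes, 0.12 for Ngfr, 0.10 for Fbln2, 0.0193 for Cd34, 0.0026 for Sparc and 0.0154 for Fbn1. With Fl/Fl 7 and LKO 3 both left out they turned to 0.14 for Lrat, 0.10 for Fbln2, 0.17 for Cd34 and 0.38 for Dpt. Leaving out single libraries, the ranges that crossed 0 were -0.25 to 0.24 for Lrat, -0.0071 to 0.17 for Des, -0.25 to 0.12 for Nes, -0.19 to 0.16 for Ngfr, -0.18 to 0.19 for Fbln2, -0.39 to 0.13 for Cd34, -0.0344 to 0.54 for Mfap4 and -0.67 to 0.33 for Dpt. The adjusted p of Gas6 ran from 0.00893 to 0.292 over the alternatives, with log2 fold changes of 0.45 to 0.58. The cause of these differences was not tested. No paired analysis was possible because the genotypes share no replicate number. Depth limits mainly Tagln, with 13 to 30 reads a library.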
